A study of Mus musculus with 6 samples.

Results

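Matrix metalloproteinases (MMPs) and tissue inhibitors of metalloproteinases (TIMPs) were followed through RNA-seq libraries of mouse peritoneal macrophages. The genes were the 9 rows of the count table with the symbols Mmp8, Mmp9, Mmp12, Mmp13, Mmp14, Mmp19, Timp1, Timp2 and Timp3, out of 25509 gene rows, and all 9 passed the filter on low counts that left 12827 genes for testing. The study compared 3 libraries of wild-type (WT) mice with 3 libraries of Tg-ACE mice, which overexpress angiotensin-converting enzyme (ACE) and are also called JWT in the sample titles. All 6 came from the C57BL/6 strain. In every group the cells had been drawn into the peritoneal cavity by thioglycollate, an irritant, collected on day 4, spun through Percoll and kept if they stuck to the dish within 2 h. The promoter of the transgene, the age of the mice and whether the replicates were separate mice are not stated in the labels, so p-values measure the spread between these libraries, which may in part be technical.

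MMPs are zinc-dependent endopeptidases that are made as inactive proenzymes and cut collagen, elastin, gelatin and other matrix proteins, as well as cytokines and cell-surface proteins. TIMPs bind the active site of the mature enzymes and block it, and TIMP2 also takes part in the activation of pro-MMP2 by the membrane-anchored MMP14. Macrophages are the main source of the elastase MMP12, while MMP8 and MMP9 are also stored in the granules of neutrophils.

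Library totals ran from 24294258 to 28120394 expected counts, so that 3 counts, the smallest level read as detected, stood for 0.107 to 0.123 CPM, the counts scaled to a common library size. Ace, the overexpressed gene, stood at 16.7, 7.6 and 11.6 CPM in WT replicates 1 to 3 and at 101, 25.6 and 31.8 CPM in Tg-ACE replicates 1 to 3. The sample descriptions place replicate 1 of both genotypes under a code Exp-156 and replicates 2 and 3 under Exp-156b, without saying what the codes stand for. Libraries are named by genotype and replicate, so that WT 1 and Tg-ACE 1 make up Exp-156. The codes also went with sex markers, since the Y-chromosome gene Ddx3y reached 48.0 and 51.6 CPM in the Exp-156 pair and no more than 0.107 CPM in the other 4 libraries. Xist, from the X chromosome, was at 0.409 and 0.527 CPM in that pair and at 327 CPM or more in the rest. Sex and experiment code therefore cannot be told apart in any difference between Exp-156 and Exp-156b. The summed CPM of 9 rows of macrophage markers lay between 18064 and 22006 in every library, led by the lysozyme gene Lyz2. Of the 9, however, 6 were called lower in Exp-156b and 0 higher, beside 23.0% and 20.0% of all tested genes. Among the lower was Adgre1, the gene of the F4/80 antigen (-1.22 on the log2 scale). Markers of several other cell types differed between the codes, and those of granulocytes, monocytes, mast cells, resident macrophages, mesothelium and fibroblasts are given beside the genes they moved with. T cell markers (6 genes) summed to 11.7 and 9.49 CPM in WT 1 and Tg-ACE 1 against 3.29 to 5.89 in the rest, and dendritic cell markers (5 genes) to 34.3 and 29.9 against 5.14 to 9.66. B cell markers (5 genes) summed to 56.4 to 128 CPM, with 0 of 5 called between the codes, beside 42.9% of all tested genes. In such bulk RNA, fewer cells of a type and less RNA per cell cannot be told apart.

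Per kilobase of exon, Mmp12 was the most abundant of the 9 genes, at 337 ± 30.5 CPM per kilobase (SD, n = 6). Timp2 followed at 175 ± 16.0 and Mmp19 at 64.3 ± 19.1 CPM per kilobase. Each of these 3 lay apart from the next gene in the order, with no overlap between their ranges over the 6 libraries. Mmp14 came next at 21.5 ± 7.23 and Mmp9 at 16.3 ± 23.8 CPM per kilobase, and here the ranges overlapped, with Mmp14 above Mmp9 in 4 of 6 libraries. Timp1 (4.58 ± 1.16), Mmp8 (4.39 ± 2.5), Mmp13 (2.69 ± 1.79) and Timp3 (2.11 ± 0.910 CPM per kilobase) closed the order, each overlapping the next. With the length of the longest transcript in place of all exons, Mmp12 stood at 546 and Mmp14 at 39.6 CPM per kilobase and Timp3 moved ahead of Mmp13 at 3.64 against 2.69.

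**Figure D1:**
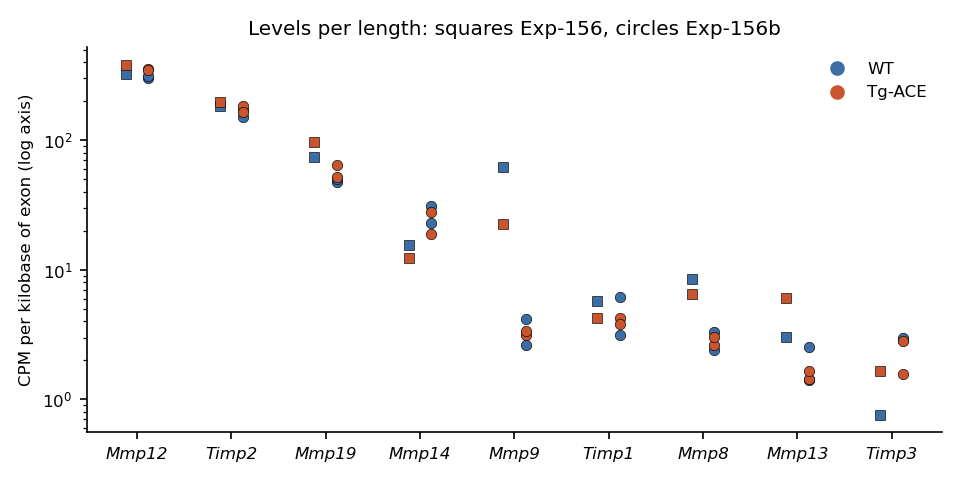
CPM per kilobase of exon (log axis) of the 9 genes in each library, in the order of their means, with squares for Exp-156, circles for Exp-156b, blue for WT and orange for Tg-ACE. Mmp12 lies between 302 and 384 in all libraries, while Mmp9 runs from 2.65 to 62.4, with its squares far above its circles.

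Summed over the 23 MMP genes in the table, CPM per kilobase ranged from 398 to 548, and Mmp12 made up 64.2% to 78.4% of it. Mmp19 made up 11.6% to 17.8%. The share of Mmp9 was 12.3% in WT 1 and 4.09% in Tg-ACE 1, against 0.665% to 1.05% in the 4 Exp-156b libraries. The 6 MMP genes followed here held at least 96.39% of the sum in each library. Timp2 held 94.9% to 97.1% of the sum of the 4 TIMP genes. The TIMP sum was 0.368 to 0.455 times the MMP sum, a ratio of transcript levels only. It was 0.374 and 0.368 in Exp-156 and 0.386 to 0.455 in Exp-156b, a description with no test. These shares and this ratio use the length of all exons and depend on that choice. With the longest transcript Mmp12 went from 337 to 546 CPM per kilobase and Timp2 from 175 to 184.

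The genotype comparison asked whether the ACE transgene went with a change in any of these genes. None of the 9 passed the quasi-likelihood test of edgeR after Benjamini-Hochberg adjustment (adjusted p = 1 for each), where 0% of all tested genes were called and 126 genes had an unadjusted p under 0.05. None of the 9 was among those 126, and DESeq2 in the same comparison called 9 genes but 0 of the 9 followed here, with no p-value given for Mmp9. Tg-ACE minus WT ran from -1.26 (Mmp9) to 0.40 (Mmp13) on the log2 scale, with 4 genes above 0 and 5 below and a median of -0.13, beside -0.01 over all tested genes. With the experiment code as a further term, edgeR called 0 of the 9 and 0.0156% of tested genes, and the differences ran from -0.64 to 0.30 with 5 genes above 0, 4 below and a median of 0.04. In that edgeR fit 831 genes had an unadjusted p under 0.05, 2 of the 9 among them. The relative spread between libraries was 0.31 with genotype alone and 0.108 with the code added. The test of genotype alone keeps the difference between the codes in its spread and could miss genotype differences. The comparison of the experiment codes, fitted with genotype in the model, called 6 of the 9, where it called 42.9% of all tested genes (20.0% higher and 23.0% lower in Exp-156b). Of the 6, Mmp8, Mmp13, Mmp9 and Mmp19 were lower in Exp-156b and Mmp14 and Timp3 higher, with a median over the 9 genes of -0.20 beside -0.01 over all tested genes. All 4 Exp-156b libraries lay below both Exp-156 libraries for the 4 lower genes, as they did for 30.9% of tested genes, and above both for Mmp14, as for 28.9%. The codes did not overlap for these 5 of the 9 genes, beside 59.8% of tested genes.

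**Figure D2:**
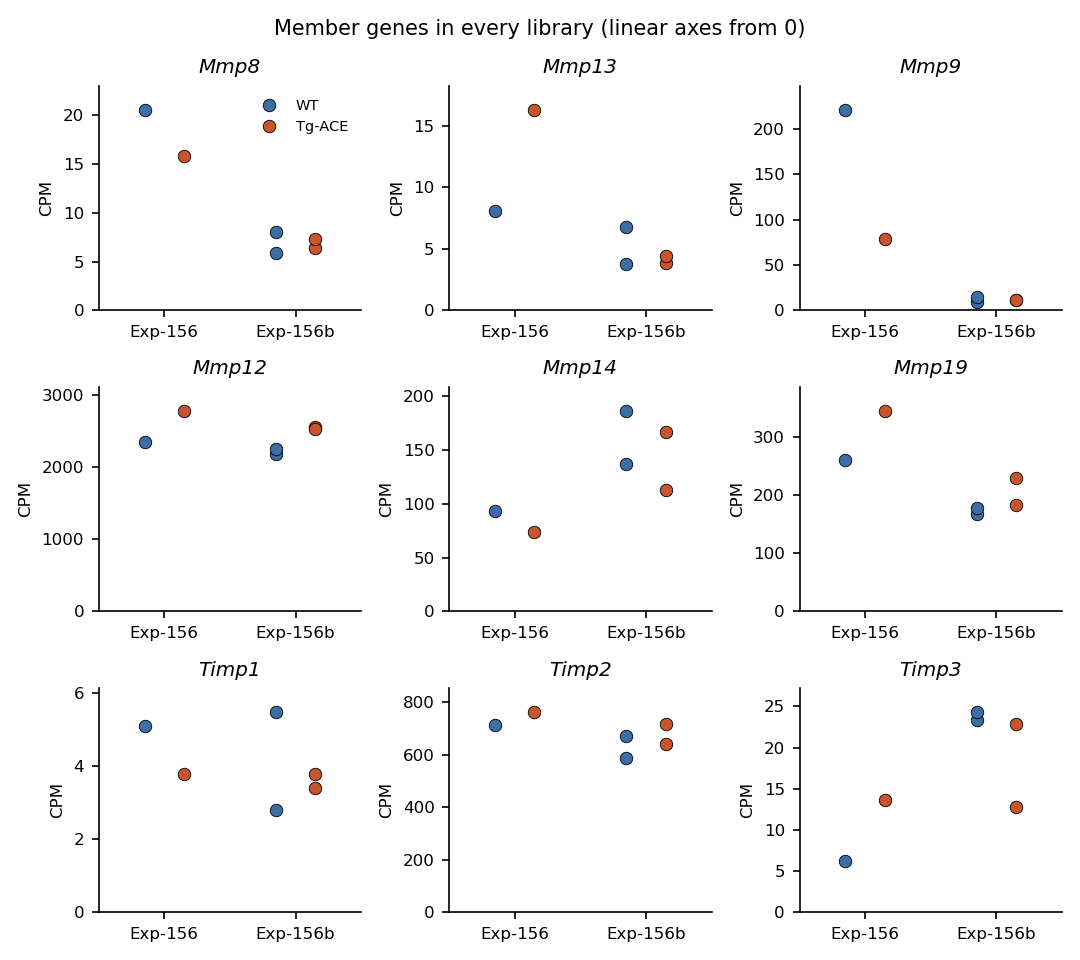
CPM (linear axes from 0) of the 9 genes, with 1 point for each library, placed by experiment code and coloured by genotype (blue WT, orange Tg-ACE). Mmp8, Mmp13, Mmp9 and Mmp19 have all Exp-156b points below both Exp-156 points, and Mmp12 has every Tg-ACE point above every WT point.

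**Figure D3:**
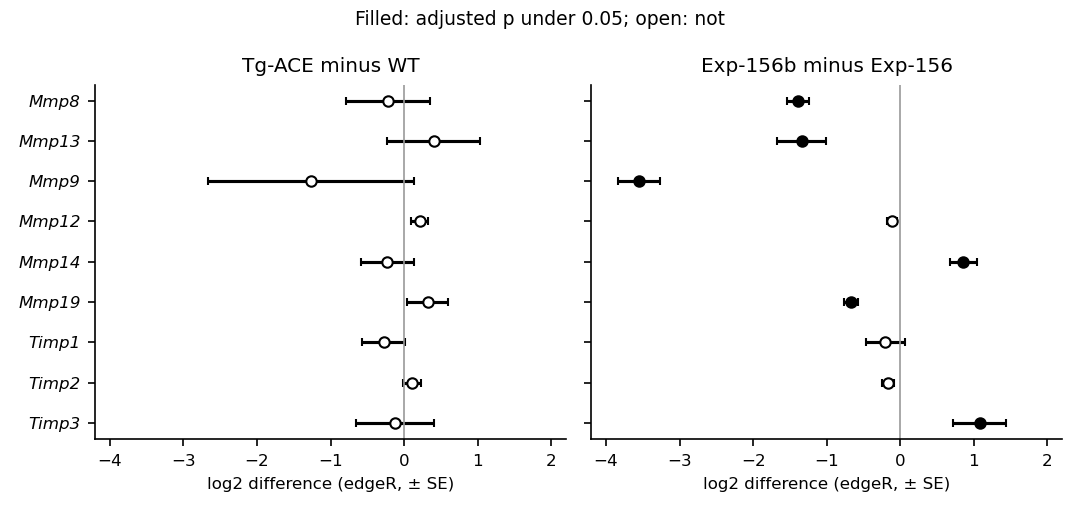
Log2 differences of the 9 genes with their standard errors, for Tg-ACE minus WT on the left and Exp-156b minus Exp-156 on the right, with filled points for an adjusted p under 0.05. The left panel has open points only, with the widest error for Mmp9 (SE 1.40), and the right panel has 6 filled points from -3.55 to 1.08.

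The collagenases come first. Mmp8, the neutrophil collagenase (chromosome 9, 7558456 to 7568485, forward strand of GRCm38), stood at 20.5, 7.99 and 5.84 CPM in WT replicates 1 to 3 and at 15.8, 6.34 and 7.32 CPM in Tg-ACE replicates 1 to 3, from 147 to 502 counts. The Exp-156 library was the high one in each genotype, and the genotypes overlapped. Its mean was 18.2 ± 3.36 CPM (SD, n = 2) in Exp-156 and 6.87 ± 0.964 CPM (SD, n = 4) in Exp-156b. That fall of 1.39 on the log2 scale (SE 0.15) passed the quasi-likelihood test of edgeR after Benjamini-Hochberg adjustment (adjusted p = 4.3e-04). The genotype difference of Mmp8 was -0.22 (SE 0.57) and became 0.51 without WT 1.

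Mmp13, collagenase-3, the main interstitial collagenase of mice (chromosome 9, 7272514 to 7283331, forward strand), stood at 8.10, 6.82 and 3.74 CPM in WT and at 16.3, 3.82 and 4.44 CPM in Tg-ACE, in replicate order. Tg-ACE 1 was the highest library, at 2.01 times WT 1, and the other Tg-ACE libraries lay among the WT libraries of Exp-156b. The fall from Exp-156 to Exp-156b was 1.34 on the log2 scale (SE 0.33; edgeR quasi-likelihood test, Benjamini-Hochberg adjusted p = 0.0135), but without Tg-ACE 1 the difference was -0.62 and the call was lost (adjusted p = 0.25). Within Exp-156 the Tg-ACE library lay 1.0 above the WT library in log2 CPM, and within Exp-156b the Tg-ACE mean lay 0.29 below. The test of this difference between the experiments gave -1.36 (SE 0.49; edgeR unadjusted p = 0.0328, adjusted p = 0.647).

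Mmp9, gelatinase B, which cuts gelatin and type IV collagen (chromosome 2, 164940780 to 164955850, forward strand), varied most of the 9 genes. It stood at 221, 9.37 and 14.7 CPM in WT replicates 1 to 3 and at 79.3, 11 and 11.9 CPM in Tg-ACE replicates 1 to 3, from 264 to 5394 counts. Both Exp-156 libraries were far above the 4 others, and the 4 Exp-156b libraries lay close together whatever their genotype. The mean in Exp-156 was 12.7 times that in Exp-156b, a log2 difference of -3.55 (SE 0.29; edgeR quasi-likelihood test, Benjamini-Hochberg adjusted p = 1.1e-04). Only 69 of the tested genes, 0.538%, were lower in Exp-156b by as much. The call held under each alternative that was tested, with -4.2 to -2.79 when single libraries were left out.

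The genotype difference of Mmp9, -1.26 (SE 1.40), rested on the Exp-156 libraries: without WT 1 it was 1.51, and without Tg-ACE 1 it was -2.83. It was -0.64 (SE 0.30, edgeR unadjusted p = 0.0656, adjusted p = 0.782) with the experiment code in the model, -0.61 with the replicate block and -0.44 with limma-voom, none of them called. Within Exp-156 the WT library held 2.78 times the Mmp9 CPM of the Tg-ACE library, while within Exp-156b the genotypes differed by -0.04 in mean log2 CPM. The interaction of genotype and code was 1.41 (SE 0.32) and failed the quasi-likelihood test of edgeR after Benjamini-Hochberg adjustment (unadjusted p = 0.00479, adjusted p = 0.647). In that test 0% of genes passed and 981 had an unadjusted p under 0.05. DESeq2 gave 1.42 with an adjusted p of 0.0471, and edgeR without WT 3 gave 1.78 with an adjusted p of 0.0209. Each genotype has 1 library in Exp-156, so this comparison has no replicate of its own there.

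The summed markers of granulocytes, like Mmp9, were highest in WT 1 and next in Tg-ACE 1. In the neutrophil list the gap between WT 1 and Tg-ACE 1 came mainly from Retnlg. Of its 6 tested markers, 3 were called lower in Exp-156b and 0 higher, beside 23.0% and 20.0% of all tested genes. The summed CPM of 11 neutrophil markers was 569 in WT 1, 258 in Tg-ACE 1 and 81.9 to 92.1 in Exp-156b, led by Retnlg, a granulocyte resistin-like protein, at 438 and 129 CPM in the Exp-156 pair and no more than 1.23 CPM elsewhere. S100a9, a calcium-binding protein of neutrophils and monocytes, reached 21.1 and 9.67 CPM in the Exp-156 pair, with no more than 1.39 CPM elsewhere. The defining neutrophil marker Ly6g stood at 0.0409 CPM in WT 1 and at 0 in the other 5 libraries, and the granule genes Camp, Ngp, Elane and Mpo reached at most 0.123 CPM in Exp-156 and 1.43 CPM, for Mpo in Tg-ACE 2, in Exp-156b. Most of the summed 81.9 to 92.1 CPM in Exp-156b therefore came from other markers of the list, which are not named here. The summed CPM of 6 eosinophil markers was 223 in WT 1, 88.4 in Tg-ACE 1 and 8.66 to 18.4 in Exp-156b, led by Ccr3, the eotaxin receptor, at 146 and 55.3 CPM in Exp-156. The eosinophil granule genes Epx, Prg2 and Ear1 stayed at or below 0.450 CPM in all libraries. Of the 6 eosinophil markers 1 was tested, and it was called lower in Exp-156b, by 1.96 on the log2 scale. Ccr3 fell by more than that and was not the tested gene. Monocyte markers (6 genes) summed to 439.6 and 389 CPM in Exp-156 and to 28.7 to 38.1 CPM in Exp-156b, and mast cell markers (5 genes) to 94.0 and 60.7 CPM against 13.9 to 28.2. Markers of large resident peritoneal macrophages (6 genes) summed to 303 and 321 CPM against 51.6 to 84.3, led by Cd5l. Of these 6, 5 were called lower in Exp-156b and 1 higher, by 1.41 on the log2 scale. The part of these cells in the levels of Mmp9, Mmp8 and Mmp13 was not tested.

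**Figure D4:**
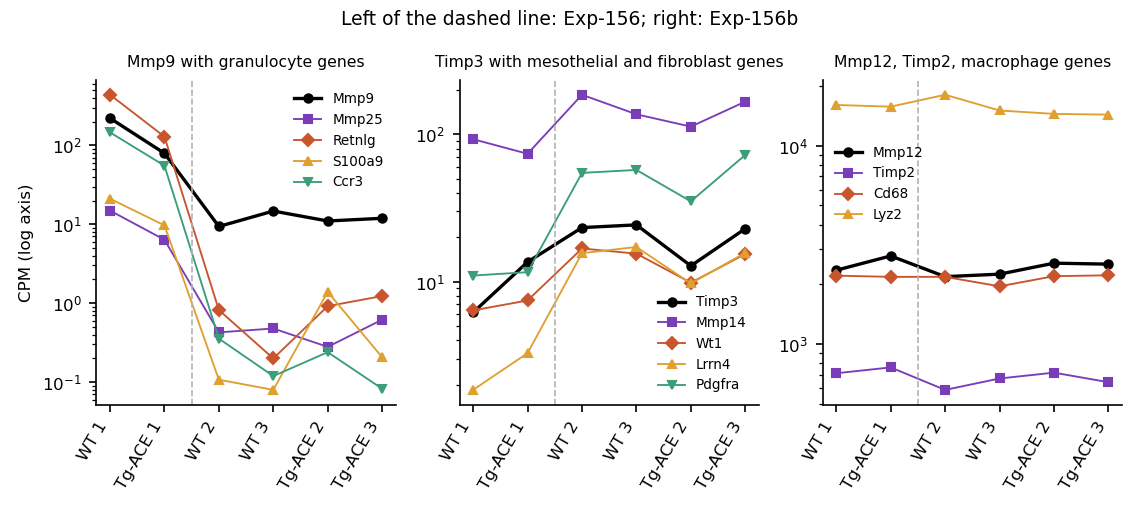
CPM (log axes) in the 6 libraries, with Exp-156 left of the dashed line and Exp-156b right of it. The panels draw Mmp9 with Mmp25 and granulocyte genes, Timp3 and Mmp14 with mesothelial and fibroblast genes, and Mmp12 and Timp2 with Cd68 and Lyz2. These last are 2 of 9 rows of macrophage markers, of which 6 were called lower in Exp-156b and 0 higher, beside 23.0% and 20.0% of all tested genes. Mmp9 drops with Retnlg, S100a9 and Ccr3, Timp3 has its Exp-156b low point at Tg-ACE 2 (12.8 CPM) as Wt1 and Pdgfra do, and Mmp12 runs nearly level. The granulocyte genes drawn are a part of their lists picked among those that fell. Of the 6 neutrophil markers tested, 3 were called lower in Exp-156b and 0 higher.

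Mmp12, macrophage elastase (chromosome 9, 7344381 to 7369499, forward strand), stood at 2355, 2186 and 2250.1 CPM in WT replicates 1 to 3 and at 2779.6, 2556 and 2527 CPM in Tg-ACE replicates 1 to 3. Every Tg-ACE library lay above every WT library, which held for 2.38% of tested genes in that direction, for 2.53% in the other and for 4.91% in either. The means were 2621 ± 138 CPM in Tg-ACE and 2264 ± 85.2 CPM in WT (SD, n = 3), a log2 difference of 0.21 (SE 0.11). It failed the quasi-likelihood test of edgeR after Benjamini-Hochberg adjustment (unadjusted p = 0.109, adjusted p = 1). The difference was alike in the experiments, 0.24 in log2 CPM between the Exp-156 libraries and 0.20 between the Exp-156b means, with an interaction of -0.04 (SE 0.14). Adding the experiment code to edgeR's model gave 0.21 (SE 0.07, unadjusted p = 0.0154, adjusted p = 0.76). DESeq2 with the code, a setting chosen after the data were seen, gave 0.22 and called it (adjusted p = 0.0403, among 38 genes called). Between the codes Mmp12 differed by -0.11 (SE 0.07, edgeR adjusted p = 0.259).

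Mmp13, Mmp12 and Mmp8 stand in a cluster of 10 MMP genes on chromosome 9, over 427 kb from 7272514 to 7699585 of GRCm38, of which 5 were tested. Along it, Exp-156b minus Exp-156 was -1.34 for Mmp13, -0.11 for Mmp12, 3.41 for the stromelysin gene Mmp3, -1.39 for Mmp8 and -1.91 for Mmp27. Only Mmp3 rose, from 3 counts in each Exp-156 library, the smallest level read as detected. It had 24 to 50 counts in Exp-156b, at most 2.06 CPM. Mmp1b, Mmp1a and Mmp20 had no count in any library. Mmp12 shares 157 exon bases with Mmp1b on the other strand, and the labels do not say how strand was treated in counting.

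MMP promoters are a textbook site of AP-1, the Fos and Jun dimer, and starts of the 3 followed genes of the cluster are shown so that their letters can be compared. Each run is the 150 bases before a RefSeq start (GRCm38.p6, forward strand), at chr9:7272364-7272513 for Mmp13, chr9:7347224-7347373 for the second start of Mmp12 and chr9:7558279-7558428 for Mmp8. Capitals mark the AP-1 letters TGACTCA and the Runx letters AACCACA on both strands, and the TATA letters TATAAA on the strand shown.
Mmp13: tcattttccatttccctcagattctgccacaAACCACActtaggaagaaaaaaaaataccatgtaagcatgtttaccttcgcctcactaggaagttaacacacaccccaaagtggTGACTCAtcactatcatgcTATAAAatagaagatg
Mmp12, second start: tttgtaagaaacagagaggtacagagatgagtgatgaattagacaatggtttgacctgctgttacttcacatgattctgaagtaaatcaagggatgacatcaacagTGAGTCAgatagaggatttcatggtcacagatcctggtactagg
Mmp8: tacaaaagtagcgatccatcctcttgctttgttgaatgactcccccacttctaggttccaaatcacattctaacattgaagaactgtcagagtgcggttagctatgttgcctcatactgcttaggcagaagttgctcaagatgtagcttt
Mmp13 holds TGACTCA at 35 to 29 bases before its start, with TATAAA at 16 to 11 and AACCACA at 119 to 113 bases before it. At its second start Mmp12 holds the reverse form TGAGTCA at 44 to 38 bases, and the window of its first start holds none. Mmp8 holds neither these AP-1 letters nor AACCACA in its window. Of the 10 cluster genes, 7 hold the AP-1 letters in a window from 250 bases before to 50 after a start, and of the 12 other MMP and TIMP genes with a window, 0 hold them. In all 32851 RefSeq windows of 300 bases, on both strands, the share with the AP-1 letters is 5.20%, with AACCACA 5.27% and with TATAAA 13.6%. For TATAAA on the forward strand of the window alone it is 8.32%. Among the 5 tested cluster genes the letters did not go with a single direction between the codes. Of those that hold them Mmp13 fell, Mmp12 did not pass, and Mmp3, at the detection floor in Exp-156, rose. Of those that lack them Mmp8 and Mmp27 both fell. Such matches describe letters only. Windows were found for 22 of 27 MMP and TIMP genes, and for 7 of the 9 followed here, not Mmp9 and Mmp19.

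Of the AP-1 subunit genes, 7 of the 9 tested were lower in Exp-156b and 0 higher by the quasi-likelihood test of edgeR after Benjamini-Hochberg adjustment, beside 23.0% lower and 20.0% higher over all tested genes. Fos dropped from 308 and 238 CPM in Exp-156 to between 12.7 and 16.2 CPM in Exp-156b, a fall of 4.21 on the log2 scale (SE 0.12, edgeR adjusted p = 1.6e-06). Fosl2 fell by 1.30, Jun by 1.13, Junb by 0.67, Jund by 0.52 and Maf, a large bZIP factor, by 1.75. Atf3, a stress-induced subunit, differed by -0.03 (edgeR adjusted p = 0.778). None of the 9 passed between the genotypes, where 0% of all tested genes passed.

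Mmp14, the membrane-anchored collagenase MT1-MMP (chromosome 14, 54431612 to 54445364, forward strand), stood at 92.8, 186 and 137 CPM in WT and at 73.9, 113 and 167 CPM in Tg-ACE, in replicate order. The Exp-156 library was the lowest in each genotype, and the genotypes overlapped. It rose from 83.4 ± 13.4 CPM (SD, n = 2) in Exp-156 to 151 ± 32.2 CPM (SD, n = 4) in Exp-156b, by 0.86 on the log2 scale (SE 0.18; edgeR quasi-likelihood test, Benjamini-Hochberg adjusted p = 0.00662). The size was similar without WT 1 (0.92) and without Tg-ACE 1 (0.79), but the call was lost in both (edgeR adjusted p = 0.0557 and 0.0817). Between the genotypes Mmp14 differed by -0.23 (SE 0.36).

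Mmp19, a secreted MMP that macrophages express and that cuts basement membrane proteins (chromosome 10, 128790910 to 128800824, forward strand), stood at 261, 168 and 178 CPM in WT and at 345, 229 and 183 CPM in Tg-ACE. In each genotype the Exp-156 library was the highest. It fell by 0.67 on the log2 scale between Exp-156 and Exp-156b (SE 0.10; edgeR quasi-likelihood test, Benjamini-Hochberg adjusted p = 0.00148), with -0.75 to -0.57 when single libraries were left out. Between the genotypes it differed by 0.32 (SE 0.28), with 0.41 in log2 CPM between the Exp-156 libraries and 0.24 between the Exp-156b means. With the code in the edgeR fit the genotype difference was 0.30 (SE 0.09, unadjusted p = 0.0131, adjusted p = 0.76). Mmp19 shares 789 exon bases with Tmem198b on the other strand. Tmem198b stood at 18.1 to 21.5 CPM in all 6 libraries, and Mmp19 was the only 1 of the 9 genes with expected counts that were not whole.

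Among the inhibitors, Timp2, which binds MMP14 and MMP2 and is made by many cells at a steady level (chromosome 11, 118301069 to 118355740, reverse strand), stood at 713, 588 and 671 CPM in WT and at 763, 718 and 643 CPM in Tg-ACE. Its range over libraries was 0.38 on the log2 scale, close to the 0.35 of Mmp12 and the next smallest of the 9 genes. It differed by 0.11 (SE 0.12) between genotypes and by -0.17 (SE 0.08, edgeR adjusted p = 0.137) between codes.

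Timp1, the inducible inhibitor that binds pro-MMP9 (chromosome X, 20870166 to 20874735, forward strand), was low, at 5.11, 2.80 and 5.49 CPM in WT and at 3.80, 3.79 and 3.41 CPM in Tg-ACE, from 79 to 138 counts. The Tg-ACE libraries lay within the range of the WT libraries. The genotype difference was -0.28 (SE 0.29) and the code difference -0.20 (SE 0.27, edgeR adjusted p = 0.584).

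Timp3, the inhibitor that stays bound to the matrix and also blocks ADAM proteinases such as ADAM17 (chromosome 10, 86300372 to 86349506, forward strand), stood at 6.18, 23.3 and 24.3 CPM in WT and at 13.6, 12.8 and 22.9 CPM in Tg-ACE, from 151 to 657 counts. In WT the Exp-156 library was far below the others, whereas in Tg-ACE replicates 1 and 2 were low and replicate 3 high, so the codes overlapped. The rise from 9.88 ± 5.23 CPM (SD, n = 2) in Exp-156 to 20.8 ± 5.38 CPM (SD, n = 4) in Exp-156b was 1.08 on the log2 scale (SE 0.36) and just passed the quasi-likelihood test of edgeR after Benjamini-Hochberg adjustment (adjusted p = 0.0441). It was 0.39 without WT 1 (adjusted p = 0.391) and 1.01 without WT 3 or Tg-ACE 3 (adjusted p = 0.067 and 0.104), none of them called, and DESeq2 gave 1.11 with an adjusted p of 0.0728. Timp3 shares 1733 exon bases with Syn3 on the other strand, which stood at 0.141 to 0.614 CPM.

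The genotype difference of Timp3 was -0.13 (SE 0.53) over all libraries. In log2 CPM it was 1.13 between the Exp-156 libraries and -0.47 between the Exp-156b means, and the interaction of -1.55 (SE 0.47) failed the quasi-likelihood test of edgeR after Benjamini-Hochberg adjustment (unadjusted p = 0.0163, adjusted p = 0.647). Markers of the peritoneal lining were low where Timp3 was low. The summed CPM of 7 mesothelial markers was 20.3 in WT 1, 25.9 in Tg-ACE 1, 33.4 in Tg-ACE 2 and 49.5 to 54.1 in the other 3 libraries. For 7 fibroblast markers it was 52.7 in WT 1, 51.6 in Tg-ACE 1, 82.0 in Tg-ACE 2 and 121 to 164 in the other 3. In both lists 4 of 7 genes rose and 1 fell in Exp-156b by the quasi-likelihood test of edgeR after Benjamini-Hochberg adjustment. Over all tested genes 20.0% rose and 23.0% fell. No marker of either list stayed at 3 counts or fewer over all 6 libraries. The most abundant were Wt1 (6.38 to 16.8 CPM), a transcription factor of mesothelium, and Pdgfra (11 to 72.6 CPM), a receptor of fibroblasts. Mmp14 had its lowest values in the same 3 libraries. The part of these cells in Timp3 and Mmp14 was not tested.

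Other MMP genes, 17 in all, were mostly scarce: 8 were tested, and the highest value was 34.6 CPM, for Mmp27 in Tg-ACE 1. The mean of Mmp27 over all libraries, 7.32 CPM per kilobase of exon, was above those of Timp1, Mmp8, Mmp13 and Timp3. Between the genotypes 0 of the 8 passed the quasi-likelihood test of edgeR after Benjamini-Hochberg adjustment, and between the codes 7 did, where 0% and 42.9% of all tested genes passed. Higher in Exp-156b were the gelatinase gene Mmp2 (by 1.23 on the log2 scale), Mmp3 (3.41), Mmp17 (2.06) and Mmp23 (1.01), none above 5.02 CPM in any library. Lower were Mmp25, a leukocyte membrane-type MMP (-4.48), Mmp27 (-1.91) and Mmp28, epilysin (-1.93). Mmp25 stood at 14.9, 0.426 and 0.477 CPM in WT and at 6.36, 0.279 and 0.617 CPM in Tg-ACE, the same order of WT 1, Tg-ACE 1 and the rest as for Mmp9. Mmp27, at 29.0 and 34.6 CPM in Exp-156 and 5.25 to 11.4 CPM in Exp-156b, had Tg-ACE 1 highest, as Mmp13 did. Timp4, the fourth inhibitor, stayed at or below 0.0710 CPM. Lrp1, the receptor that clears MMPs and TIMPs from outside the cell, stood at 1895 to 2441 CPM and passed in neither comparison, nor did the membrane-anchored inhibitor Reck (1.02 to 1.27 CPM).

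Partners of these enzymes differed between the codes gene by gene, and none passed between the genotypes, where 0% of all tested genes passed. Of 10 activators and cell-surface anchors, 3 rose in Exp-156b and 2 fell, a share near the 42.9% called over all tested genes. Cd63, a tetraspanin that binds TIMP1, rose by 0.81, and Cd9, another tetraspanin, by 0.65. Cd44, the hyaluronan receptor that holds MMP9 at the surface, fell by 0.80, from 484 and 540 CPM to between 270 and 317. Furin, the convertase that activates pro-MMP14, fell by 0.35, while Bsg, the MMP inducer basigin, differed by -0.19 without passing. Of 8 tested genes of plasminogen activation, 4 fell and 0 rose, beside 23.0% lower over all tested genes, with Anxa2 and S100a10, which form a plasminogen receptor, at -0.88 and -0.89 and the urokinase receptor Plaur at -0.35 on the log2 scale. Urokinase itself, Plau, stood at 49.6 to 95.9 CPM and did not pass (-0.40, edgeR adjusted p = 0.144).

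ADAM proteinases, relatives that shed membrane proteins, were listed together with Rhbdf2, a partner of ADAM17 and not an ADAM itself. Of the 8 genes tested in that list, 5 were lower in Exp-156b and 2, Rhbdf2 among them, higher, where 42.9% of all tested genes were called. Adam8 went from 1024 and 927 CPM in Exp-156 to between 435 and 590 CPM in Exp-156b (-0.85), Adam15 fell by 1.06, Adam19 by 1.35, Adam9 by 0.47 and Adam10 by 0.36. Adam17, the TNF-releasing enzyme that TIMP3 blocks, stood at 214 to 241 CPM and differed by -0.04 (edgeR adjusted p = 0.636). Its partner Rhbdf2 rose by 0.47. Of 7 ADAMTS genes, 3 rose and 1 fell, Adamts10 (-1.02). Of 12 substrate genes, 6 rose in Exp-156b and 2 fell. Both of these last counts stand beside the same 42.9% of all tested genes. Those that rose included Col1a1 (1.6), Col1a2 (1.08), Col4a1 (2.68) and Sparc (1.40), genes of collagens and a collagen-binding protein. Fibronectin, Fn1, fell by 2.11, from 3398 and 4269 CPM to between 521 and 1087, and thrombospondin-1, Thbs1, by 2.69. Osteopontin, Spp1, an MMP substrate at 1743 to 3506 CPM, did not pass (-0.40, edgeR adjusted p = 0.143).

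For the 3 genes with the widest range, the genes of most similar pattern were those with the smallest root mean square difference in log2 CPM, each centred on its own mean over the 6 libraries, among 9409 named genes at 5 CPM or more. Nearest to Mmp9, whose range was 4.55 on that scale, were the sulfotransferase gene Chst15 (difference 0.23; 45.7 and 19.0 CPM in Exp-156, 1.71 to 2.86 in Exp-156b), the cytochrome gene Cyp4f18 (0.24) and the phosphatase gene Dusp1 (0.26). Nearest to Mmp13, with a range of 2.10, were the cation channel gene Trpm2 (0.16), Gvin1 (0.17) and Naip1 (0.19). Trpm2 had Tg-ACE 1 highest at 23.3 CPM and WT 1 next at 15.1. Nearest to Timp3, with a range of 1.96, were the lysyl oxidase-like gene Loxl2 (0.14), the growth factor receptor gene Egfr (0.18) and the ADAMTS gene Adamts9 (0.19). Loxl2 stood at 5.03, 17.1 and 20.1 CPM in WT and at 9.25, 10.2 and 21.2 CPM in Tg-ACE. These likenesses rest on 6 libraries in clusters by code and were chosen by the values shown.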

How the data were processed

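The authors deposited unnormalized expected counts for each gene in 6 stranded poly-A libraries (75-base single reads). The submitters' processing notes list STAR 2.5.0, RSEM 1.2.25, mm10 and GRCh38 without their roles. Values were rounded to whole counts. The 92 ERCC rows (1 count in all) were left out, 0 columns belonged to no sample, and no 2 libraries were identical. Positions are from GENCODE vM21 (GRCm38) and promoters from RefSeq (GRCm38.p6).

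edgeR 4.0.16 (R 4.3.3) was run with TMM factors, filterByExpr and the quasi-likelihood test, with Benjamini-Hochberg adjustment over all 12827 genes at 0.05. Genotype was tested alone, the experiment code with genotype in the fit, and their interaction. The standard error is the log2 difference over the square root of F. CPM use TMM-scaled totals, and log2 CPM a prior count of 2. Depth limits and floors cover counting error only. Alternatives covered scaling, filters, DESeq2 1.42.0, limma-voom (limma 3.58.1), left-out libraries, code and replicate terms.

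Same-numbered WT and Tg-ACE libraries deviated together (correlations over genes 0.856, 0.484 and 0.637), but crossing replicates 2 and 3 gave 0.539 and 0.614, so what pairing there is goes with the experiment code. The replicate block is therefore given only as an alternative. Groups come from the sample titles. The series' design text says Tg-NKO where the samples say Tg-ACE.

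The members and gene lists were chosen with earlier results of these data known. Named genes are the 9 members, list genes at 20 CPM or more in a group mean, the most abundant markers and those near 0, and the 3 nearest patterns for the 3 most variable members. Some genes below 20 CPM (the other MMPs, Timp4, Reck) and genes that overlap a member were named after their values were seen.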

Additional observations from a re-analysis of the deposited data

Results flagged for a closer look

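Among the 4 Exp-156b libraries, Timp3 in Tg-ACE 2 (12.8 CPM) stood far below the other 3 (22.9 to 24.3 CPM), with a gap of 0.876 of the group's range, beyond Dixon's 95% limit for 4 values. Chance marks about 1 in 20 such groups, and each gene had 1 group of 4. Mesothelial and fibroblast markers were also lowest in Tg-ACE 2 within Exp-156b (33.4 and 82.0 CPM summed), and their part was not tested.

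Timp3 also moved in opposite directions between the genotypes in the experiments: Tg-ACE lay 1.13 above WT in log2 CPM within Exp-156, with 1 library a side, and 0.47 below within Exp-156b (-0.47). The interaction in edgeR's quasi-likelihood test was -1.55 (unadjusted p = 0.0163, Benjamini-Hochberg adjusted p = 0.647), so a difference between the experiments did not pass.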

How the results depend on the processing

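Over all genes, the genotype test called 0 genes as run, 1 without a filter, 1 with limma-voom, 9 with DESeq2, 2 with the replicate block, 2 with the code as a term, 2 in Exp-156b alone, 38 with DESeq2 and the code (added after seeing the data) and 0 to 1 with single libraries left out. Members called between genotypes were 0 under each setting except 1, Mmp12, with DESeq2 and the code. The block changed no other member's call. The code test called 5504 genes as run and 3406 to 5263 with single libraries left out (3449 without WT 1, 3406 without Tg-ACE 1), and with upper-quartile scaling 3333 higher and 2408 lower in place of 2559 and 2945. The interaction called 0 genes as run, 13 with DESeq2 and 0 to 14 with single Exp-156b libraries left out. The 1 member among them was Mmp9, both with DESeq2 and without WT 3, against 0 otherwise. Without an Exp-156 library the interaction could not be fitted.

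Some uncalled differences changed sign, and the cause was not tested. Between genotypes Timp3 (-0.13) was 0.03 with limma-voom, 0.01 with the replicate block, 0.04 with the code, 0.09 with DESeq2 and the code, 1.13 in Exp-156 alone and -0.54 to 0.15 with single libraries left out. Mmp13 (0.40) was -0.36 in Exp-156b alone. With single libraries left out, Mmp13 ran from -0.59 to 0.73, Mmp9 from -2.83 to 1.51, Mmp8 from -0.75 to 0.51 and Mmp14 from -0.56 to 0.04. Between codes Timp1 ran from -0.40 to 0.01. The interaction ran from -0.17 to 0.38 for Mmp14, -0.18 to 0.80 for Timp1, -0.08 to 0.12 for Timp2 and -0.33 to 0.01 for Mmp19. Mmp8, Mmp9 and Mmp19 kept their call between the codes under each tested alternative. Depth limits most the genes with few counts: Timp1 had 79 to 138 and Mmp13 94 to 463 counts a library.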
